A study of Rattus norvegicus with 6 samples.

Results

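Transcripts of the semaphorins, plexins and neuropilins, a family of guidance ligands and their receptors, were examined in cultured rat oligodendrocyte precursor cells, the dividing cells from which myelinating oligodendrocytes arise. Members were taken by gene symbol (semaphorins of classes 3 to 7, plexins of classes A to D, and the neuropilins), which gave 31 genes among the 32662 rows of the deposited table: 20 semaphorins, 9 plexins and 2 neuropilins. All libraries came from Sprague-Dawley rats. Mixed glia from the cerebral cortex of pups aged 1 to 2 days were grown with 20% serum, and the cells that did not adhere were then cultured over 4 to 5 days in medium with B27 (2%) and the growth factors PDGF and FGF (each at 10 ng/ml). In 3 libraries the cells had been treated over 72 hours with fibrils preformed from human alpha-synuclein, which builds up inside oligodendrocytes in multiple system atrophy, and 3 libraries were controls, for which the labels name no vehicle. Neither a fibril dose nor the number of animals behind a library is given, so every p-value here measures the spread between these libraries, which may be technical.

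Semaphorins are secreted or membrane-bound ligands that share a sema domain. Plexins are their main receptors and signal to the cytoskeleton through a cytoplasmic GTPase-activating domain, while neuropilins are co-receptors that most class 3 semaphorins need in order to act through class A plexins. In the oligodendrocyte lineage, class 3 semaphorins are known to attract or repel migrating precursors, and several transmembrane semaphorins are made by the lineage itself.

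Values are FPKM, fragment numbers divided by gene length and library total, so levels of different genes can be set side by side. The number of fragments is unknown. Relative to control replicate 2, a single fragment added 4.06 times the FPKM in control replicate 1, 6.96 times in fibril replicate 1 and 0.824 to 1.97 times elsewhere, so low values are least precise in replicate 1. The mitochondrial share of all FPKM was 80.3% (control) and 75.6% (fibril) in replicate 1 and at most 40.1% in the other libraries. Precursor markers were abundant, with summed levels of 1521 to 2493 FPKM over 8 genes in controls and 1242 to 1468 FPKM with fibrils. Their sum was thus lower in every fibril library than in every control. Of the 8 tested, 6 had negative and 2 positive differences, and 0 separated the groups. Oligodendrocyte markers (8 genes) summed to 310.0 to 755.5 FPKM in controls and 2119 to 3903 FPKM with fibrils. Of the 7 tested, 6 were higher in every fibril library than in every control, beside 4.24% of all genes tested. Astrocyte markers (7 genes) summed to 57.2 to 85 FPKM against 23.0 to 51.4 FPKM and neuron markers (8 genes, Slc17a7 at 0 throughout) to 89.1 to 147 FPKM against 57.3 to 73.1 FPKM. Of the 6 tested in each list, 3 astrocyte and 3 neuron markers were lower in every fibril library than in every control, beside 5.30% of all genes. In the other direction, 1 astrocyte marker and 0 neuron markers were higher in every fibril library. Microglia and macrophage markers (8 of 9 in the table) summed to 1.44 to 23.6 FPKM against 5.98 to 43.9 FPKM, and 1 of the 4 tested was higher in every fibril library. Endothelial markers (6 of 7 in the table, Cldn5 and Tie1 at 0) and fibroblast and mural markers (8 genes, with Acta2, Col1a2 and Lum at 0) stayed at or below 0.877 FPKM in sum. In bulk RNA, fewer cells of a type and less RNA per cell cannot be told apart.

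Of the 31 genes, 30 were above 0 in at least 1 library, 25 were above 0 in all 6, and 13 had 1 FPKM or more in all 6. A gene was tested when it had 1 FPKM or more in at least 3 libraries, and 22 members passed, where 33.0% of all rows did. These were 15 of the 20 semaphorins, 7 of the 9 plexins and 0 of the 2 neuropilins. An exact 0 in this table can be a failed estimate, since the housekeeping genes Hprt1 and Rps6 are listed at 0 in all 6 libraries. The plot of all members by library shows the range, from Sema5a at a control mean of 42.2 FPKM to Sema3g, which was listed at 0 throughout.

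**Figure D1:**
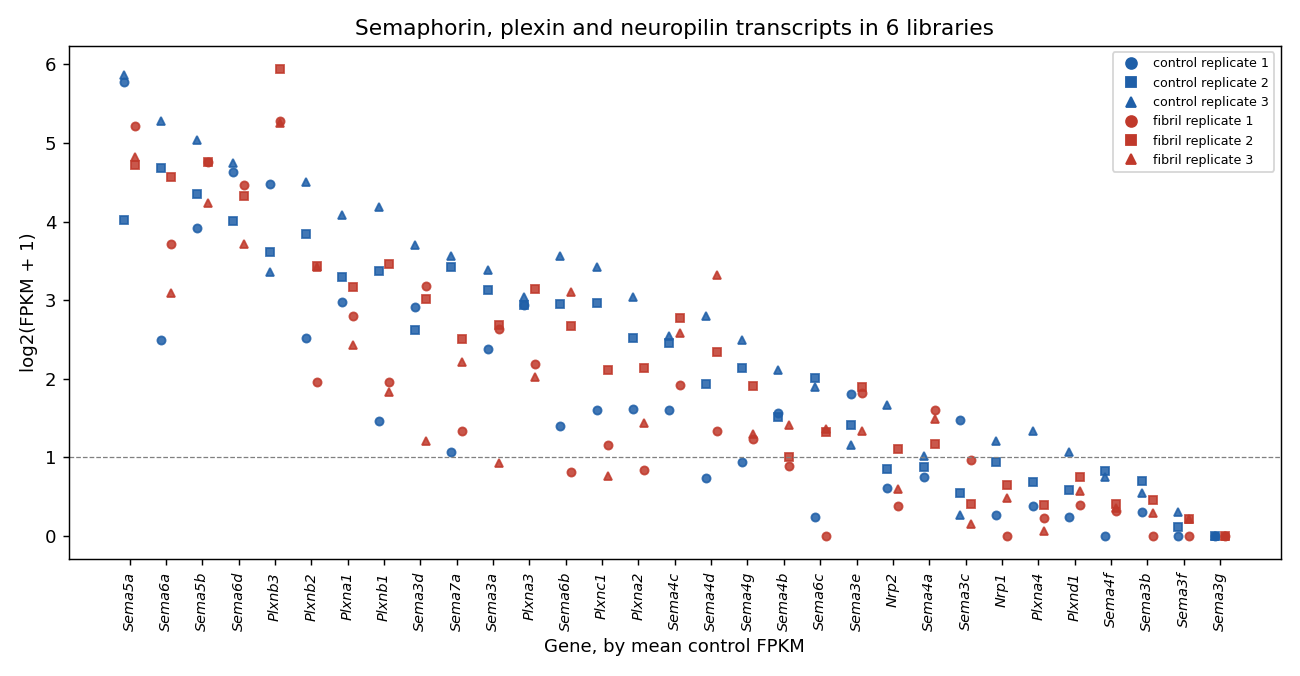
Level of each of the 31 members, as log2(FPKM + 1), in each library (controls in blue and fibril libraries in red, with a symbol for each replicate number), ordered by mean control FPKM. The dashed line marks 1 FPKM. Plxnb3 is the member whose 3 fibril libraries (37.0 to 60.3 FPKM) lie farthest above its 3 controls (9.28 to 21.3 FPKM), while most others overlap.

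Among the receptors, Plxnb3 stood apart. It encodes plexin-B3, a class B plexin that binds Sema5a and is known to be enriched in oligodendrocytes, and it lies on chromosome X (157015304 to 157028434 in the deposited table, whose genome build is not given in the sources used here). Its level was 21.3, 11.3 and 9.28 FPKM in control replicates 1, 2 and 3, and 38.0, 60.3 and 37.0 FPKM in the fibril libraries. All 3 fibril libraries were above all 3 controls, and the ratio of means was 3.24 (mean ± SD over 3 libraries a group, 13.9 ± 6.42 FPKM for controls, 45.1 ± 13.2 FPKM for fibrils). Within replicate numbers 1, 2 and 3 the fibril library had 1.79, 5.35 and 3.99 times the control FPKM. On the log2(FPKM + 1) scale, which understates changes of low genes, the difference was 1.67 (SE 0.44). It did not pass the threshold over all 10766 genes tested (limma adjusted p = 0.774), although its unadjusted p of 0.00424 ranked 59 among them. With the replicate number as a block the adjusted p was 0.219, and it stayed above 0.05 under every alternative run (0.219 to 1.000, the last without fibril replicate 3). The oligodendrocyte markers given above moved in the same direction as Plxnb3, and their part in its higher level was not tested.

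The other 2 class B plexins had groups that overlapped. Plxnb1, the receptor of Sema4d, had 1.76, 9.38 and 17.2 FPKM in controls, against 2.87, 9.98 and 2.56 FPKM with fibrils (log2 difference -0.59, SE 0.74, adjusted p = 0.964 by limma). Fibril replicates 1 and 2 were close to or above their same-numbered controls, and fibril replicate 3 was far below its own. Without control replicate 3 the difference was -0.006. Plxnb2, a widely expressed receptor of class 4 semaphorins, had 4.70, 13.4 and 21.7 FPKM against 2.90, 9.85 and 9.70 FPKM; it was lower in 3 of 3 replicate numbers, with overlapping groups (log2 difference -0.68, SE 0.62, limma adjusted p = 0.960).

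The sequences before the 3 class B transcription starts are shown because the fibril libraries were all above the controls for Plxnb3 and not for its close relatives. Each line is the 250 bases upstream of the RefSeq start (GRCr8), 5′ to 3′ on the gene's strand, with capitals marking GGGCGG (a GC box, the site type bound by Sp factors) or ACAAAG (a core word of SOX binding sites), each on either strand; the 2 words do not overlap each other here.
Plxnb1, chr8:118622911-118623160, plus strand: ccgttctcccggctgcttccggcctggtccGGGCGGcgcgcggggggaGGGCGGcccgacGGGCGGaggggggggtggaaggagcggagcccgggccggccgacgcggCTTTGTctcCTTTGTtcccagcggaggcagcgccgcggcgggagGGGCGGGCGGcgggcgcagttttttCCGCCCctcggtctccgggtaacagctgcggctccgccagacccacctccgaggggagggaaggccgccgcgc
Plxnb2, chr7:122137949-122138198, minus strand: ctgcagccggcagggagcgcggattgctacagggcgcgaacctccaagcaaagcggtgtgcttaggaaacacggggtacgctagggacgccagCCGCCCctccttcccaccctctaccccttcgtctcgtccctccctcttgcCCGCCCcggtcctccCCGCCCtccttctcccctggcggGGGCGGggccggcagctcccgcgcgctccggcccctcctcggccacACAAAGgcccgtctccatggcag
Plxnb3, chrX:156646624-156646873, plus strand: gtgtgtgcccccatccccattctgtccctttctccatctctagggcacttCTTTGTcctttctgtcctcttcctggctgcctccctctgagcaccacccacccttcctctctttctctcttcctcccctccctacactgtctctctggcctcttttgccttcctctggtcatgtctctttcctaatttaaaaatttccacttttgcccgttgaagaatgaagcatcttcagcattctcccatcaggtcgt

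The Plxnb3 window had 50.8% G and C and 2 CpG, against 78.0% and 36 CpG for Plxnb1 and 71.6% and 24 CpG for Plxnb2. The medians over 27457 rat promoter windows of this length were 52.0% and 6 CpG. GGGCGG occurred 6 times before Plxnb1, 4 times before Plxnb2 and 0 times before Plxnb3, and 32.4% of all windows hold it. ACAAAG occurred 2 times before Plxnb1 and 1 time before each of Plxnb2 and Plxnb3, and 16.0% of all windows hold it. CTGGNAC, a word of the oligodendrocyte factor Myrf, was in none of these 3 windows, and 14.5% of all windows hold it. A match describes these letters only, 1 start was available for each gene, and no binding was measured. Of the 31 members, 23 had a window in the RefSeq table, with 35.2% to 83.2% G and C (median 60.0%), and 13 of them held GGGCGG.

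Because the plexins are measured in the same library, their shares do not depend on how a library was scaled. Shares do not remove a shift that differs between genes, such as that with locus length within replicate 3 described below. The part of length in the shares was not tested. Plxnb3 made up 46.4%, 18.2% and 10.2% of the summed plexin FPKM in control replicates 1, 2 and 3. With fibrils it made up 68.1%, 58.2% and 62.1%. Its share was thus higher in each fibril library than in each control, and among the 9 plexins it had rank 1 in all 3 fibril libraries, but ranks 1, 2 and 5 in the controls. The other 8 plexins summed to 24.6, 50.9 and 81.6 FPKM in controls, against 17.8, 43.3 and 22.6 FPKM with fibrils, so they were lower in 3 of 3 replicate numbers although the groups overlapped. The whole plexin sum was 45.9, 62.1 and 90.9 FPKM against 55.8, 103.7 and 59.7 FPKM, with no separation of the groups.

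**Figure D2:**
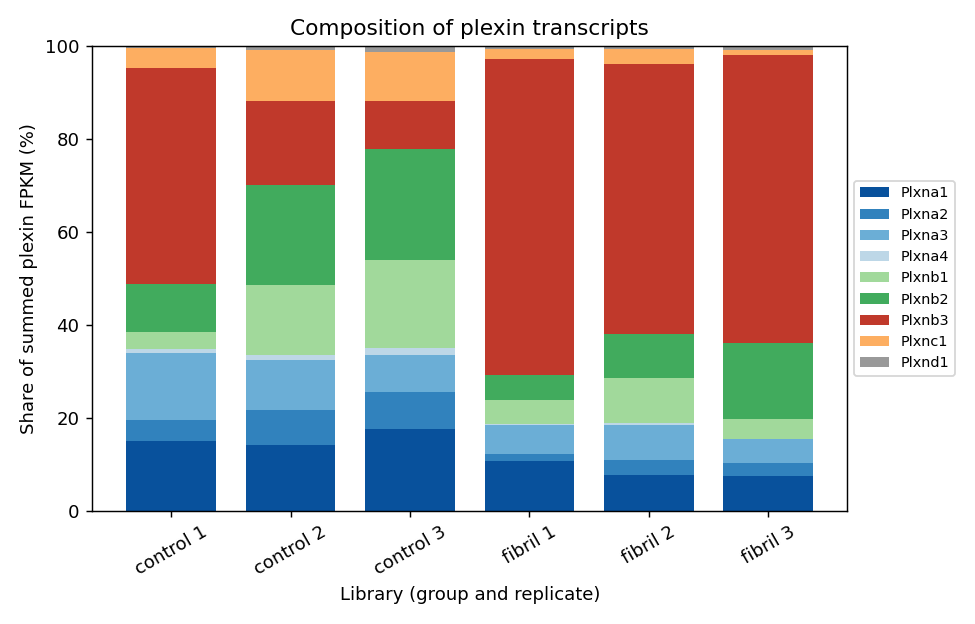
Share of the summed plexin FPKM (percent) taken by each of the 9 plexin genes in each library; each bar is 1 library and sums to all plexins. The Plxnb3 segment (red) spans 58.2% to 68.1% in the fibril libraries and 10.2% to 46.4% in the controls.

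Class A plexins, which transduce class 3 signals with neuropilins and class 6 signals directly, overlapped between groups in summed level, with 15.9, 20.8 and 31.9 FPKM in controls, against 10.5, 19.5 and 9.22 FPKM with fibrils. As a class they held 34.7%, 33.4% and 35.1% of plexin FPKM in controls and 18.8%, 18.8% and 15.4% with fibrils, and these groups did not overlap. That total includes Plxnb3. Of the plexins other than Plxnb3, class A held 64.7%, 40.9% and 39.1% in controls and 58.8%, 45.0% and 40.7% with fibrils, and the groups overlapped. Plxna1, a receptor of Sema3a complexes and of Sema6d, had 6.90, 8.80 and 15.9 FPKM against 5.97, 7.99 and 4.40 FPKM, with fibril replicate 2 inside the control range (log2 difference -0.65, SE 0.43). Plxna2, a receptor of Sema6a, had 2.07, 4.71 and 7.24 FPKM against 0.781, 3.41 and 1.71 FPKM and was lower in 3 of 3 replicate numbers (-0.92, SE 0.51). Plxna3, which serves mainly Sema3f through Nrp2, was even across controls at 6.64, 6.67 and 7.26 FPKM and uneven with fibrils at 3.54, 7.81 and 3.06 FPKM (-0.53, SE 0.42). All 3 had a limma adjusted p of 0.960. Plxna4 was below the filter, with 0.298, 0.605 and 1.52 FPKM in controls, against 0.171, 0.316 and 0.0475 FPKM with fibrils.

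Plxnc1, the plexin receptor of Sema7a, had the most negative log2 difference of the tested members. It had 2.04, 6.82 and 9.72 FPKM in controls, against 1.24, 3.32 and 0.690 FPKM with fibrils. Each fibril library was below its same-numbered control, but fibril replicate 2 was above control replicate 1, so the groups overlapped. The log2 difference was -1.32 (SE 0.57), with an unadjusted p of 0.0476 and a limma adjusted p of 0.960 (0.481 with the replicate block). Most of its size came from replicate 3 (-2.67, against -0.44 and -0.86 within replicates 1 and 2). Plxnd1, the receptor of Sema3e, stayed at 0.185 to 1.10 FPKM over the 6 libraries and was not tested.

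The neuropilin co-receptors were scarce in these cells. Nrp1, the co-receptor of Sema3a and of VEGF, had 0.205, 0.925 and 1.31 FPKM in controls, against 0, 0.569 and 0.393 FPKM with fibrils. Nrp2, the co-receptor of Sema3f, had 0.531, 0.796 and 2.18 FPKM against 0.304, 1.15 and 0.507 FPKM. Their sum, 0.736 to 3.48 FPKM in controls and 0.304 to 1.72 FPKM with fibrils, was far below the class A plexin sum in every library (9.22 to 31.9 FPKM).

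Among the ligands, class 5 and class 6 semaphorins, all transmembrane proteins, supplied most of the transcript. These 6 genes held 68.0% to 81.3% of the summed semaphorin FPKM in controls and 73.2% to 78.0% with fibrils, so their combined share overlapped between groups. Sema5a, a ligand of plexin-B3 with thrombospondin repeats, was the most abundant semaphorin in 4 of 6 libraries. It had 54.0, 15.3 and 57.4 FPKM in controls, against 36.2, 25.5 and 27.2 FPKM with fibrils; the fibril values lay inside the control range, and the sign of its difference (-0.30, SE 0.54) turned to 0.017 without control replicate 3. Sema5b, its close relative, had 14.1, 19.4 and 31.8 FPKM against 26.1, 26.1 and 17.8 FPKM, again overlapping (0.15, SE 0.42; the sign turned to -0.15 when libraries were scaled without mitochondrial genes, to -0.19 in replicates 2 and 3 only and to -0.11 without control replicate 1). As a share of semaphorin FPKM, Sema5b ran from 11.7% to 15.7% in controls and from 17.7% to 21.2% with fibrils, without overlap. The shares of Sema5a, Sema6a, Sema6d, Sema3a, Sema3d and Sema7a overlapped. How often such shares separate over all genes was not determined.

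Class 6 semaphorins bind class A plexins without neuropilins. Sema6d, a Plxna1 ligand, had 23.8, 15.0 and 25.7 FPKM in controls, against 21.0, 19.0 and 12.1 FPKM with fibrils. Fibril replicate 3 was below every control, and the other fibril libraries lay inside the control range. Sema6a, a Plxna2 and Plxna4 ligand made by oligodendrocytes, varied widely among the controls alone, and the fibril libraries lay inside that range. It had 4.63, 24.7 and 37.9 FPKM in controls, against 12.1, 22.8 and 7.499 FPKM with fibrils. Sema6b (1.63, 6.70 and 10.8 against 0.763, 5.39 and 7.61 FPKM) and Sema6c (0.180, 3.04 and 2.72 against 0, 1.502 and 1.57 FPKM) had the lower value in the fibril library of each replicate number, with overlapping groups. Both were at their lowest in the replicate 1 libraries, where 1 fragment is worth the most. The limma adjusted p of the 4 class 6 genes ran from 0.964 to 0.970. The sign of Sema6a turned to 0.20 without control replicate 3, and that of Sema6b to 0.030 without control replicate 3 and to 0.26 without fibril replicate 1.

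Class 4 semaphorins, membrane ligands of class B plexins and of immune receptors, held the other 2 members whose groups did not overlap (3 of 22 in all, beside 9.55% of all genes tested), and these differed in opposite directions. Sema4a, first known as a co-stimulator of T cells, had 0.678, 0.831 and 1.02 FPKM in controls, against 2.04, 1.25 and 1.80 FPKM with fibrils (log2 difference 0.54, SE 0.35). It passed the filter through the fibril libraries and control replicate 3, so its presence among tested genes is not independent of its direction, and under quantile normalization its groups overlapped. Sema4b, a relative with broad expression, had 1.97, 1.85 and 3.31 FPKM against 0.845, 0.996 and 1.66 FPKM (-0.63, SE 0.38), with -0.69, -0.51 and -0.70 within replicates 1, 2 and 3. The filter was passed through its 3 controls and fibril replicate 3. Its presence among tested genes is thus not independent of its direction either. Under quantile normalization its groups overlapped too, and the 1 member wholly below controls was then Plxna1. Both had a limma adjusted p of 0.960. Sema4d, the ligand of Plxnb1 that oligodendrocytes are known to make, was higher in 3 of 3 replicate numbers, with 0.663, 2.81 and 5.97 FPKM in controls, against 1.53, 4.07 and 9.01 FPKM with fibrils. The spread between replicate numbers exceeded that step in both groups (0.51, SE 0.66, adjusted p = 0.964 by limma; 0.540 with the block), and without control replicate 1 the difference was -0.031. Sema4c, a Plxnb2 ligand, had 2.03, 4.49 and 4.83 FPKM against 2.80, 5.85 and 4.97 FPKM, and its difference of 0.23 turned to -0.031 when libraries were scaled without mitochondrial genes and to -0.074 without control replicate 1. Sema4g (0.918, 3.40 and 4.63 against 1.35, 2.76 and 1.45 FPKM) overlapped, and Sema4f was below the filter in every library, with 0 to 0.770 FPKM.

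Class 3 semaphorins are the secreted class. Only 3 of its 7 genes were tested, and all 3 lie on chromosome 4 between 17272510 and 19413484 in the deposited table. Sema3a, the prototype growth cone repellent, had 4.22, 7.74 and 9.46 FPKM in controls, against 5.22, 5.40 and 0.894 FPKM with fibrils. Sema3d, its neighbour, had 6.51, 5.13 and 12.03 FPKM against 8.05, 7.09 and 1.31 FPKM. For both, fibril replicate 3 was below every other library, and fibril replicates 1 and 2 were inside the control range. Without fibril replicate 3 the log2 difference of Sema3d moved from -0.61 to 0.021. Sema3e, the Plxnd1 ligand from the same stretch, stayed at 1.24 to 2.71 FPKM in all libraries and was not among the low genes in fibril replicate 3 (1.52 FPKM). Sema3c, also on chromosome 4, had 1.78 and 0.956 FPKM in the replicate 1 libraries and 0.107 to 0.462 FPKM in the others. Sema3b and Sema3f, neighbours on chromosome 8, did not exceed 0.625 and 0.229 FPKM. The locus of Sema3f overlaps that of Gnat1, and since the strand of counting is not stated, reads from the shared stretch may be assigned to either gene. Gnat1 was listed at 0.462 FPKM in fibril replicate 1, where Sema3f was at 0, and at 0 in all other libraries.

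Sema7a, a lipid-anchored semaphorin that signals through Plxnc1 and beta-1 integrin, had 1.10, 9.76 and 10.8 FPKM in controls, against 1.51, 4.67 and 3.62 FPKM with fibrils. Replicate 1 was low in both groups, and within replicates 2 and 3 the fibril library had 0.478 and 0.335 times the control FPKM, against 1.38 times within replicate 1. Its log2 difference was -0.67 (SE 0.69, limma adjusted p = 0.960).

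Taking the tested members as a list, none passed by limma at an adjusted p of 0.05, with or without the replicate block. Over all genes tested the same calls numbered 0 without the block and 12, or 0.111%, with it, all of them higher. At an unadjusted p under 0.05 there were 2 members (Plxnb3 higher, Plxnc1 lower), where 4.02% of all genes had such a p (2.21% higher and 1.81% lower). With the block there were 3 (Plxna2 in addition), where 9.84% of all genes had such a p (4.87% higher and 4.97% lower). The groups did not overlap for 2 members that were higher and 1 that was lower, beside 4.24% and 5.30% of all genes. Negative differences were found for 16 of 22 members, against 53.0% of all genes, and the median log2 difference was -0.46 against -0.04. That median differed by replicate number: within replicates 1, 2 and 3 it was 0.13, -0.016 and -1.04, with 10, 11 and 17 members negative. It was -0.11 without control replicate 3, -0.29 without fibril replicate 3 and -0.77 without control replicate 1. The count of members with fibrils wholly below controls was 10 without control replicate 1, where 18.7% of all genes were so placed. It was 5 without fibril replicate 2 (14.5% of all genes), 3 without control replicate 2 (8.65%) and 10 in replicates 2 and 3 only (24.2%). Under quantile normalization 1 member was wholly above and 1 wholly below, beside 4.74% and 4.44% of all genes. Lower in 3 of 3 replicate numbers were 7 members and higher 5 (Plxnb3, Sema4a, Sema4c, Sema4d and Sema3e), beside 19.3% and 16.9% of all genes.

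**Figure D3:**
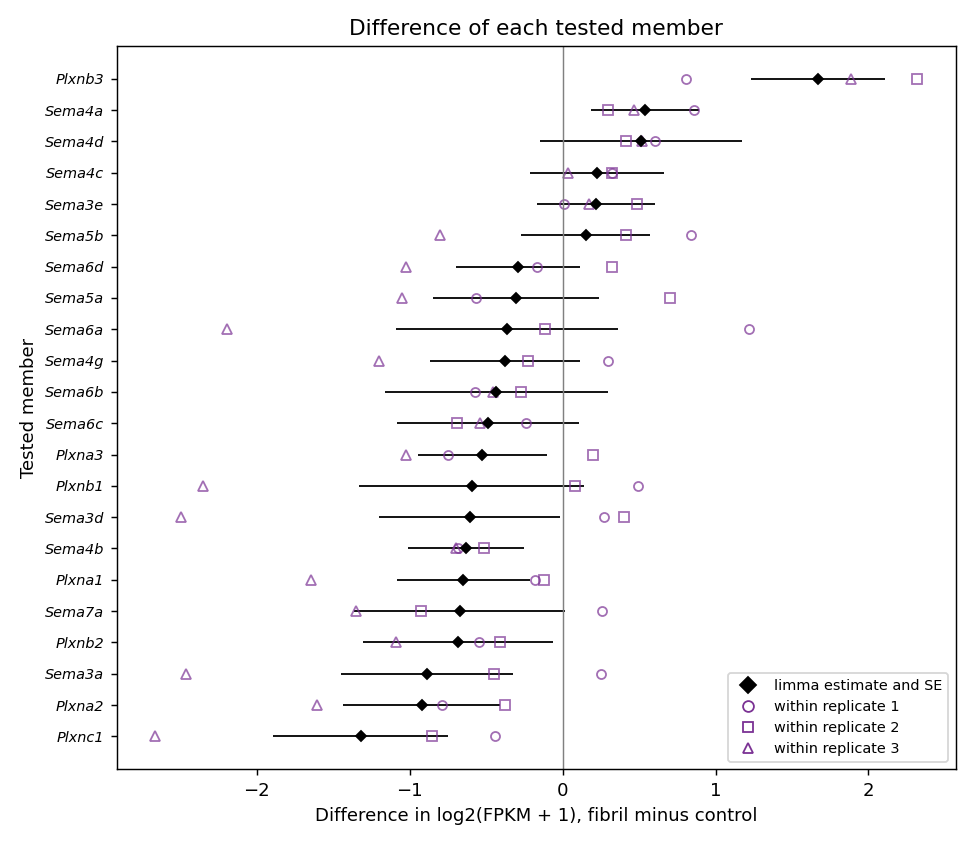
Difference between fibril and control libraries on the log2(FPKM + 1) scale for the 22 tested members; black diamonds are limma estimates with 1 SE, and open symbols are differences within each replicate number. Plxnb3 (1.67) is the highest and Plxnc1 (-1.32) the lowest, and within replicate 3 (triangles) 17 members are negative.

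Locus length moved with the replicate 3 differences, which set fibril replicate 3 against control replicate 3 without a stated pairing. All tested genes were ordered by locus length and split into 4 groups of equal size. In the group with the shortest loci (up to 9.37 kb) the median difference within replicate 3 was 0.62, and in that with the longest (59.5 kb or more) it was -0.80. The corresponding values were 0.10 and -0.11 within replicate 1 and -0.042 and -0.042 within replicate 2. The tested members numbered 0, 9, 6 and 7 from the shortest group to the longest, and their median locus length was 38.7 kb against 24.5 kb for all tested genes. The part of length in the members' lower values was not tested. Plxnb3 was in the group next to the shortest, and so were its relatives Plxnb1 and Plxnb2, whose log2 differences were negative (-0.59 and -0.68).

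**Figure D4:**
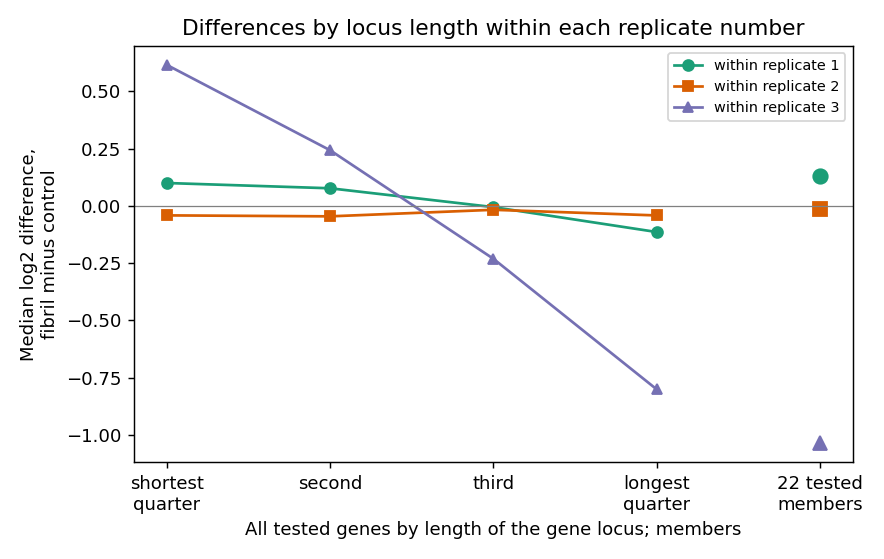
Median log2 difference (fibril minus control) within each replicate number, for all 10766 tested genes split into 4 groups by locus length, and for the 22 tested members at the right. Within replicate 3 the median goes from 0.62 for the shortest loci to -0.80 for the longest, and the members' median is -1.04.

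Partners of the family were read from the same fit, using a list of 60 genes for co-receptors, other receptors and intracellular effectors. Of these 42 were tested, 0 passed by limma without or with the block, 13 had positive and 29 negative differences, and the median log2 difference was -0.22, beside -0.04 for all genes. At an unadjusted p under 0.05 there were 4 higher and 1 lower, beside 2.21% and 1.81% of all genes, and with the block 5 higher and 5 lower, beside 4.87% and 4.97%. The groups did not overlap for 3 tested partners that were higher and 3 that were lower, beside 4.24% and 5.30% of all genes. Dpysl4, a member of the collapsin response mediator family that relays class 3 signals to microtubules, had 51.4, 34.7 and 47.6 FPKM in controls, against 131, 75.1 and 184 FPKM with fibrils, without overlap (log2 difference 1.45, SE 0.46, adjusted p = 0.960 by limma, 0.219 with the block). Its better known relative Dpysl2 had 140, 120 and 201 FPKM against 185, 196 and 56.5 FPKM, with fibril replicate 3 lowest; without that library the difference turned from -0.23 to 0.35.

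Fyn, a kinase downstream of plexin-A and a known promoter of oligodendrocyte differentiation, had 414, 149 and 222 FPKM in controls, against 555, 362 and 565 FPKM with fibrils, with fibril replicate 2 below control replicate 1. Gipc1, an adaptor for the neuropilin tail, had 9.43, 26.7 and 24.9 FPKM against 25.7, 60.6 and 158 FPKM, with fibril replicate 1 inside the control range. Both genes were thus higher in each fibril library than in its same-numbered control, and each had a limma adjusted p of 0.960.

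Mras, a Ras-family substrate of the plexin GTPase-activating domain, had 16.7, 16.1 and 22.3 FPKM in controls, against 10.9, 11.6 and 10.7 FPKM with fibrils, without overlap (-0.67, SE 0.36, limma adjusted p = 0.960). Ptk2, encoding focal adhesion kinase, had 20.8, 37.3 and 38.7 FPKM against 13.5, 25.5 and 14.6 FPKM. Cdk5r1, the activator of the kinase Cdk5, had 4.02, 15.7 and 18.5 FPKM against 1.74, 8.16 and 1.503 FPKM. Both of the latter were lower in each fibril library than in its same-numbered control, with overlapping groups. Farp2, which relays Sema3a signals at plexin-A, overlapped (3.96, 3.89 and 6.20 against 1.85, 5.54 and 4.76 FPKM). Itgb1, the integrin partner of Sema7a, was close between groups (74.96, 58.1 and 79.9 against 80.7, 52.0 and 72.7 FPKM).

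Tyrobp, an adaptor of myeloid cells that can join a Plxna1 complex, was listed at 0, 4.48 and 0 FPKM in controls and had 1.93, 18.7 and 8.76 FPKM with fibrils. Fibril replicate 1 was below control replicate 2, so the groups overlapped (log2 difference 2.23, SE 0.85, limma adjusted p = 0.960, 0.155 with the block). Tyrobp passed the filter through the fibril libraries and control replicate 2, so its presence among tested genes is not independent of its direction. Its partner Trem2 stayed at or below 0.801 FPKM. The L1 adhesion molecule L1cam, a partner of Nrp1, stayed at or below 0.824 FPKM. The microglia and macrophage markers given above include Tyrobp and Trem2, so their sum moves with Tyrobp in part by construction. That sum overlapped between groups, and of the 4 tested markers 3 had positive differences and 1 a negative one. The part of such cells in the level of Tyrobp was not tested.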

How the data were processed

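Per the file headers, the authors deposited 1 FPKM column per library. Per the submitters' processing notes, Trimmomatic and FastQC were used; nothing used here names an aligner, quantifier, strand setting or genome build. All 6 value columns matched 1 sample each by title.

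Because FPKM are not counts, no count model was run: log2(FPKM + 1) was tested with limma 3.58.1 in R 4.3.3 (two-sided, with a mean-variance trend and p-values adjusted by Benjamini-Hochberg over 10766 genes, threshold 0.05; a gene needed 3 libraries with at least 1 FPKM). With 3 libraries a group, the smallest p of an exact permutation test is 0.1, so none was used. The fit was tested on simulated data. The worth of 1 fragment was estimated from ratios of values below 1 FPKM (tolerance 0.03 on the log2 scale).

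Same-numbered libraries correlated after removal of group means at 0.747, 0.364 and 0.216 (replicates 1, 2 and 3), all above the 0.1 rule, so the replicate number was also fitted as a block. Because deviations from a group mean sum to 0, these correlations are not independent of one another, and passing the rule does not establish a pairing. The labels state no pairing, and control 3 with fibril 2 (0.500) and control 2 with fibril 3 (0.433) correlated more than the same-numbered libraries of replicates 2 and 3, so within-replicate values there compare libraries that may share only a number. Members and lists were chosen with earlier results of these data known; the comparison by locus length, and the choice of the 3 promoters shown, came after values were seen. Every member is accounted for, and partner genes named are the 8 with the smallest p plus 8 taken by role, 3 of them in both sets; 1 of these genes, counted among the 4 higher partners, is not reported here. Promoters are from RefSeq (GRCr8).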

Additional observations from a re-analysis of the deposited data

How the results depend on the processing

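Over all genes tested, the replicate block gave 12 genes higher, the block with scaling without mitochondrial genes gave 1, and leaving out 1 library gave 0 to 3; in the lower direction 0 passed in every setting. For members and partner genes 0 passed in either direction under all 15 alternatives, so the block changed no member's call. Members with fibrils wholly above controls numbered 2, but 1 (Plxnb3) under quantile normalization. Members wholly below controls numbered 1, but 10 in replicates 2 and 3 only, where each group has 2 libraries, and 1 to 10 when 1 library was left out; with fewer libraries more of all genes separate too (24.2% in replicates 2 and 3 only and 18.7% without control replicate 1, against 5.30%).

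Scaling without mitochondrial genes moved the median of all genes from -0.04 to -0.30 and that of the members from -0.46 to -0.68. That scaling, without and with the replicate block, turned the log2 differences of Sema4c to -0.031 and Sema5b to -0.15. Replicates 2 and 3 only turned Sema5b to -0.19 and Farp2 to 0.048. Leaving out 1 library turned the sign of some genes, with ranges of -0.96 to 0.021 for Sema3d, -0.074 to 0.48 for Sema4c, -0.031 to 1.01 for Sema4d, -0.90 to 0.017 for Sema5a, -0.11 to 0.45 for Sema5b, -1.19 to 0.20 for Sema6a, -1.05 to 0.26 for Sema6b, -0.54 to 0.35 for Dpysl2, -0.47 to 0.13 for Farp2 and -0.20 to 0.12 for Itgb1; the cause was not tested. Of the comparisons of a gene chosen for naming with an alternative, 18 turned the sign and 477 kept direction and side of the threshold. The replicate block and the changes of filter leave these log2 differences as they were. Their comparisons (33 in each such setting) could not turn the sign and say nothing on stability of direction. No gene chosen for naming passed the threshold in any setting. Fragment numbers are unknown, which limits genes near 1 FPKM most in replicate 1.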
